A study of Saccharomyces cerevisiae with 6 samples.

Results

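The 10 genes FCF1, MRP1, SVF1, PAL1, TRP4, CNL1, GGA1, SEM1, CTS2 and DXO1 lie on both sides of the hexose transporter cluster HXT7, HXT6 and HXT3 on chromosome IV of budding yeast. They were chosen for their Rgt1 insertions, so their Rgt1 values are given as a description and without a test. The flanks were defined by position in the deposited files, as the 52 windows of 1 kb on the left of the 17 windows of the cluster and the 61 windows on their right. They comprise 113 of the 12040 such windows in the genome. The 10 genes share 7 promoters, out of 794 promoters that could be placed in the files, because MRP1 and SVF1, CNL1 and GGA1, and CTS2 and DXO1 each have 1 promoter in common.

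Calling cards libraries of Rgt1, Eds1, Ino4, Leu3, Sfp1 and Zap1 were compared, with 1 library per TF. In every library the TF was joined to Sir4 on a plasmid, in strain BY4741 with the genotype sir4D, and Ty5 transposition was induced by galactose in cells grown from 1 clone. Ty5 then inserts near sites that the TF occupies, and each recovered insertion was counted once per line of the deposited file. The libraries held 29776 insertions for Rgt1, 30707 for Eds1, 15951 for Ino4, 75550 for Leu3, 35758 for Sfp1 and 16019 for Zap1. With no replicate libraries, each test below compares libraries and not conditions. All intervals are exact 95% intervals that cover counting error only, with each line taken as an independent insertion. They leave out variation between libraries, and lines that repeat a position are counted separately. The PCR reads carry no molecular identifiers. No source used here names the genome build of the coordinates.

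Rgt1 is a zinc cluster repressor of hexose transporter genes, which holds them off when glucose is absent. Eds1 is its paralog and has the same type of DNA-binding domain. HXT3 encodes a low-affinity glucose transporter, and HXT6 and HXT7 encode nearly identical high-affinity ones. None of the 10 flanking genes encodes a sugar transporter.

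The cluster took 26.0% of the Rgt1 library and 4.95% of the Eds1 library, against 0.132% to 0.201% of each other library. The HXT3 promoter held 2138 Rgt1 and 320 Eds1 insertions, against 5 in the Ino4, Leu3, Sfp1 and Zap1 libraries pooled. The HXT7 promoter held 968 Rgt1 and 247 Eds1 insertions, against 2 in the pooled libraries, and the HXT6 promoter 459 and 186, against 23. Many of these Rgt1 lines repeat a position, with 605 distinct positions at HXT3, 394 at HXT7 and 258 at HXT6. The whole Rgt1 library had 19524 distinct positions, and the Eds1 library 30024. Over the genome, 15 windows held at least 300 Rgt1 insertions and are called strong windows here, 7 of them in the cluster. The 15 strong windows took 53.0% of the Rgt1 library and 7.17% of the Eds1 library, against 0.243% to 0.299% of each other library. The lowest count among the strong windows was 330, on chromosome V, and the highest count below the limit was 297, on chromosome XIII.

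Rgt1 insertions were denser in the flanks than those of any other library. The Rgt1 library had 505 flank insertions, or 170 per 10000 insertions (155 to 185). The Eds1 library had 221, or 72.0 per 10000 (62.8 to 82.1). The shares of the others were 78.7 per 10000 for Zap1 (65.6 to 93.6), 70.2 for Ino4 (57.8 to 84.4), 57.3 for Sfp1 (49.8 to 65.7) and 42.4 for Leu3 (37.9 to 47.2). The Rgt1 share was thus 3.18 times that of the 4 pooled libraries (2.84 to 3.57), at 2.45 times on the left (1.99 to 3.00) and 3.63 times on the right (3.16 to 4.17).

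The Eds1 flank share lay within the range of the 4 other libraries. It was 1.35 times the pooled share (1.16 to 1.57), but Leu3, the largest of the pooled libraries, had the lowest share, and without Leu3 the ratio was 1.10. The Eds1 file runs through the chromosomes in 2 passes, whose meaning no source used here gives, and the flank share was 61.1 per 10000 in the first (51.5 to 71.9) and 108 in the second (85.4 to 135). Without the first pass the ratio was 2.03, and without the second it was 1.15. The 4 passes of the Rgt1 file had flank shares of 119 to 187 per 10000, all above every pass of the other libraries. The interval of the lowest, the third pass (86.8 to 160), overlapped those of the second Eds1 pass, both Zap1 passes and the first Ino4 pass. The intervals of the other Rgt1 passes lay above those of all passes of the other libraries.

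The flank insertions were gathered in few windows. Rgt1 had a median of 1 insertion per flank window. In 15 windows, 3 on the left and 12 on the right, it had at least 10, and together 68.7% of its flank insertions. The same windows held 41.9% of the pooled insertions. They were picked on their Rgt1 counts, so this difference does not show that Rgt1 was more concentrated than the pooled libraries. On the left, the most Rgt1 insertions were in the windows that start at 1150001, with 37, at 1151001, with 14, and at 1135001, with 11. On the right, they were in the windows that start at 1189001, with 58, and at 1172001 and 1201001, with 31 each. The 4 pooled libraries also peaked at 1189001, with 47 insertions. This window was thus high in the pooled libraries too, and each value below is set against theirs.

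**Figure D1:**
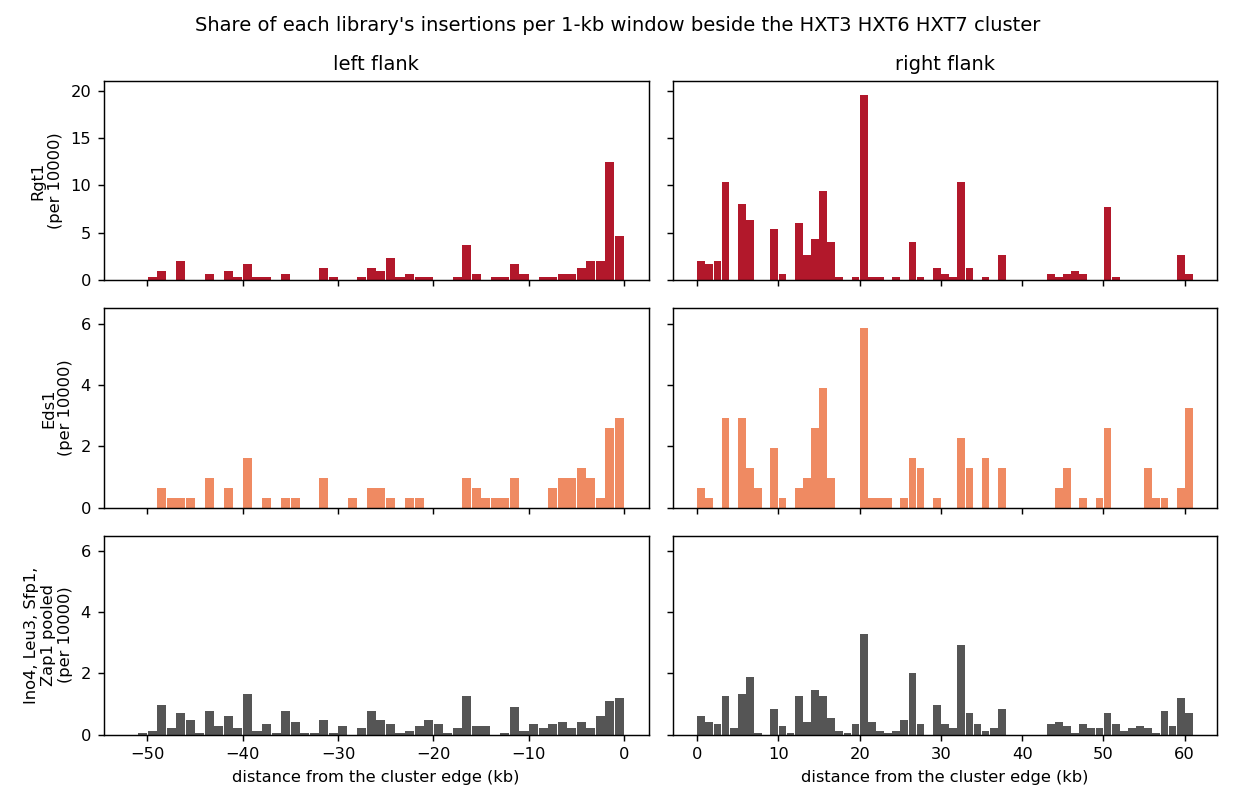
Insertions per 1-kb window as a share of each library (per 10000), plotted by distance from the edge of the hexose transporter cluster in kb, for Rgt1, for Eds1 and for the 4 other libraries pooled. The Rgt1 panels have a taller axis than the others, and the tallest bar is the window with 58 Rgt1 insertions, where Eds1 and the pooled libraries peak too.

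By Fisher's exact test, two-sided, with Benjamini-Hochberg adjustment over 4184 windows of the genome, Eds1 was higher than the pooled libraries in 1 of the 33 flank windows tested, while 1.91% of all windows tested were called. This window starts at 1229001, at the far end of the right flank, and held 10 Eds1 insertions, against 10 in the pooled libraries (ratio 4.67, 1.74 to 12.5, exact adjusted p = 0.0265). Rgt1 had 2 insertions there, and none of the 10 genes is placed in it. The call was lost under 7 of the 13 alternatives, among them counting each position once and moving the window grid by 500 bp. At an unadjusted p under 0.05, 6 flank windows were higher and 0 lower, against 7.89% of all windows higher.

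At each of the 7 promoters the Rgt1 share was above that of every other library, as at 5.92% of all placed promoters. The ratios to the pooled libraries ran from 3.45 to 17.4, and a ratio of at least 2 was found at 7 of 7, against 5.67% of all placed promoters. The median log2 ratio was 3.27 at the 7 promoters, 1.39 at the 20 other placed promoters of the flanks, and -0.64 at all placed promoters, where the insertions that Rgt1 has in its strong windows lower its share everywhere else. The 7 promoters together held 311 Rgt1 insertions, against 175 in the pooled libraries (ratio 8.55, 7.08 to 10.4).

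The highest of these ratios was at the promoter shared by MRP1, which encodes a protein of the small subunit of the mitochondrial ribosome, and SVF1, a survival factor linked to sphingolipid metabolism. It spans 1168665 to 1169087, across the edge of the cluster, 1.67 kb from the nearest strong window. It held 116 Rgt1 and 17 Eds1 insertions, against 2 for Ino4, 14 for Leu3, 14 for Sfp1 and 2 for Zap1. The Rgt1 share was 39.0 per 10000, which is 17.4 times the pooled share (11.7 to 26.7), and Eds1 was 2.48 times the pooled share (1.29 to 4.60). The Rgt1 insertions were at 73 distinct positions, and with insertions within 5 bp of one another counted once the Rgt1 ratio was 4.81. It was then no longer the highest. By that count CTS2/DXO1 had 12.7, PAL1 11.5, TRP4 9.80 and FCF1 9.22, while CNL1/GGA1 had 4.45 and SEM1 2.80.

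On the left, FCF1, which encodes a factor of early pre-rRNA cleavage, has its promoter at 1150556 to 1150821, 5.18 kb from the nearest strong window. It held 34 Rgt1 insertions at 30 positions and 5 Eds1 insertions, against 3 for Ino4, 8 for Leu3, 4 for Sfp1 and 1 for Zap1. The Rgt1 ratio was 10.2 (5.49 to 19.8) and the Eds1 ratio 1.46 (0.418 to 4.17). The Eds1 share lay below that of Ino4 there.

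PAL1, which encodes an early endocytosis protein, has its promoter at 1171821 to 1172377, 4.82 kb from the nearest strong window. It held 33 Rgt1 and 8 Eds1 insertions, against 2 for Ino4, 4 for Leu3, 4 for Sfp1 and 5 for Zap1. The Rgt1 ratio was 10.6 (5.59 to 21.0) and the Eds1 ratio 2.49 (0.914 to 6.25), but the Zap1 share was higher than that of Eds1.

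TRP4, a gene of tryptophan biosynthesis, has its promoter at 1184268 to 1184720, 17.3 kb from the nearest strong window. It held 28 Rgt1 and 11 Eds1 insertions, against 1 for Ino4, 10 for Leu3, 4 for Sfp1 and 2 for Zap1. The Rgt1 ratio was 7.93 (4.19 to 15.4) and the Eds1 ratio 3.02 (1.28 to 6.83), and both shares were above those of all 4 pooled libraries.

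The promoter shared by CNL1, a subunit of the BLOC-1 complex of endosomes, and GGA1, a Golgi clathrin adaptor, lies at 1189578 to 1190028, 22.6 kb from the nearest strong window. It held 48 Rgt1 and 13 Eds1 insertions, against 5 for Ino4, 19 for Leu3, 10 for Sfp1 and 6 for Zap1. The Rgt1 ratio was 5.77 (3.72 to 9.02) and the Eds1 ratio 1.52 (0.744 to 2.89).

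SEM1, which encodes a small subunit of the proteasome lid, has its promoter at 1201566 to 1202073, 34.6 kb from the nearest strong window. It held 33 Rgt1 and 10 Eds1 insertions, against 7 for Ino4, 13 for Leu3, 17 for Sfp1 and 9 for Zap1. The Rgt1 ratio of 3.45 (2.14 to 5.52) was the lowest of the 7, and the Eds1 share did not differ detectably from the pooled share (1.01, 0.456 to 2.04) and lay below the Ino4, Sfp1 and Zap1 shares. SEM1 was also the 1 promoter of the 7 with a call for another library, since Leu3 was 0.353 times the Ino4, Sfp1 and Zap1 libraries pooled (0.171 to 0.689, exact adjusted p = 0.0128), while Leu3 was called lower at 9.52% of promoters tested.

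The farthest promoter, shared by CTS2, a putative chitinase gene, and DXO1, which encodes a decapping exoribonuclease, lies at 1219146 to 1219404, 52.1 kb from the nearest strong window. It held 19 Rgt1 and 8 Eds1 insertions, against 2 for Ino4, 4 for Leu3, 2 for Sfp1 and 1 for Zap1. The Rgt1 ratio was 10.2 (4.38 to 25.5) and the Eds1 ratio 4.15 (1.39 to 12.1). This Eds1 ratio rests on 8 against 9 insertions, and it was 2.03 without the second pass of the Eds1 file and 11.2 without the first.

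**Figure D2:**
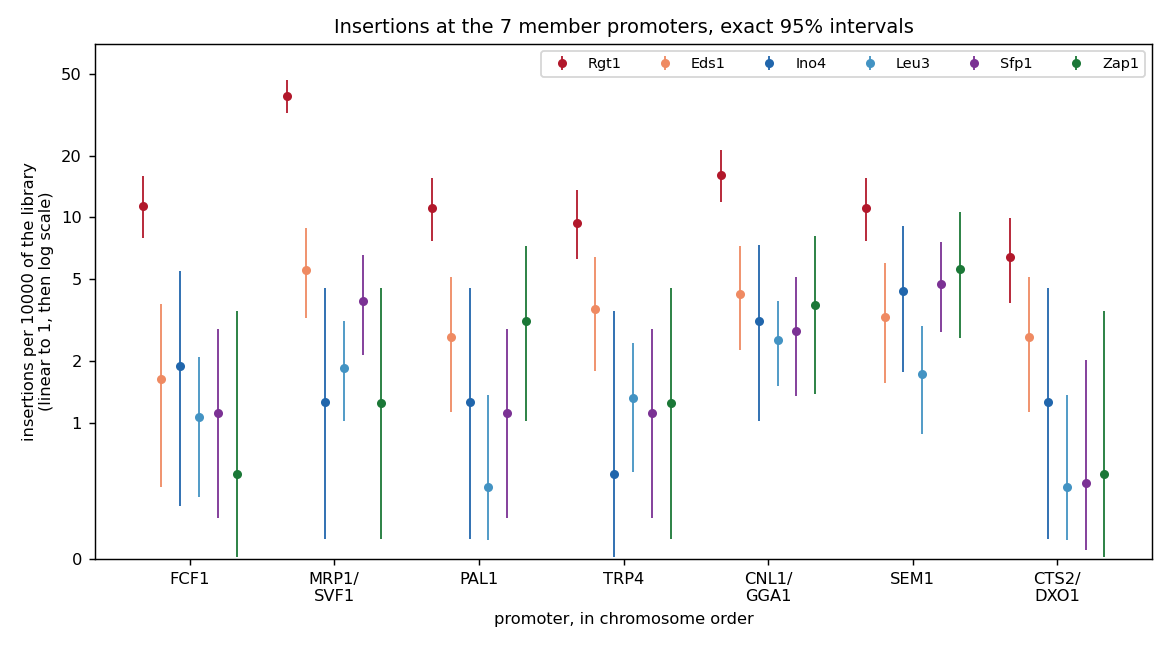
Insertions per 10000 of each library at the 7 promoters in chromosome order, with exact 95% intervals, on an axis that is linear to 1 and logarithmic above. The Rgt1 point is the highest at each promoter, and the Eds1 interval overlaps that of at least 1 other library at each.

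Eds1 was called higher than the pooled libraries at 0 of the 7 promoters by Fisher's exact test, two-sided, with Benjamini-Hochberg adjustment over 765 promoters, while 2.09% of all promoters tested were called. In simulated data the same kind of test, adjusted over windows, called 0% of 2-fold and 54% of 4-fold excesses. The excesses were set in windows with at least 20 pooled insertions. FCF1, PAL1, TRP4 and CTS2/DXO1 had 9 to 17 pooled insertions, so these percentages were not obtained at counts as low as theirs. The Eds1 ratios at the 7 promoters were 1.01 to 4.15, so 0 calls do not show that an excess was absent. At an unadjusted p under 0.05, 4 of the 7 were higher, against 8.63% of all promoters tested. They were MRP1/SVF1 (exact p = 0.0040, adjusted p = 0.0967), CTS2/DXO1 (exact p = 0.0050, adjusted p = 0.116), TRP4 (exact p = 0.0058, adjusted p = 0.126) and PAL1 (exact p = 0.0491, adjusted p = 0.412). The Eds1 share was above the pooled share at 7 of 7, as at 53.3% of all placed promoters, and above each of the 4 libraries at 4 of 7, as at 21.3% of all. The median Eds1 log2 ratio was 1.35 at the 7 promoters, against 0.20 at the 20 other promoters of the flanks and 0.35 at all placed promoters. The 7 were chosen on Rgt1, and the Rgt1 and Eds1 ratios of a promoter use the same pooled count. A low pooled count raises both, so these comparisons with all promoters are a description. MRP1/SVF1 was called without the Sfp1 library (exact adjusted p = 0.0168), and CTS2/DXO1 without the first pass of the Eds1 file (exact adjusted p = 0.0162) or without positions also found for Rgt1 (exact adjusted p = 0.0417).

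The 4 pooled libraries were tested in the same way, each against the other 3, at the 6 promoters with at least 10 insertions among them, which leaves out CTS2/DXO1. Higher calls numbered 0 for Ino4, Leu3, Sfp1 and Zap1, where 0.461%, 3.84%, 5.53% and 0.307% of the promoters tested were called higher. Lower calls numbered 1 for Leu3, at SEM1, and 0 for Ino4, Sfp1 and Zap1, where 0.922%, 2.3% and 0.614% were called lower. At an unadjusted p under 0.05, Sfp1 was higher at MRP1/SVF1 (2.34, exact p = 0.0224, adjusted p = 0.155) and Zap1 at PAL1 (3.97, exact adjusted p = 0.354).

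High Rgt1 ratios in the flanks were not limited to the 10 genes. Of the 20 other placed promoters, 12 had an Rgt1 share at least 2 times the pooled share. The highest Rgt1 shares were at YPQ2, with 18 insertions and a ratio of 5.77 (2.75 to 12.3), at TRR1, which encodes thioredoxin reductase, with 17 and 6.29 (2.88 to 14.1), and at the promoter of ATP22 and SBE2, with 14 and 6.74. All of these lie on the right. By ratio the highest of the 20 was SPC110, also on the right, with 9 Rgt1 insertions against 3 in the pooled libraries (14.4, 3.60 to 82.9), above the ratios of 6 of the 7 promoters. It was named after its value was seen. The filter of 10 insertions for placing a promoter counted Rgt1 too, and SPC110, with 2 Eds1 insertions, passed only with those of Rgt1. So did YDR338C on the left, with 6 Rgt1 and 1 Eds1 insertions, against 8 in the pooled libraries (ratio 3.61). The filter thus favoured a high Rgt1 ratio at both. The lowest shares were on the left, at DAD4, with 0 Rgt1 insertions, which allows a share of up to 1.01 per 10000 by the limit of 3 counts and 1.24 by the exact interval, and at MCM21, TIM11 and UTP4/YCG1, with 2 each.

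The Rgt1 excess was highest beside the cluster and lower farther out on both flanks, though it did not fall at every step. In steps of 10 kb away from the cluster, the Rgt1 ratio to the pooled libraries on the left was 4.81, 2.17, 2.19, 1.25 and 1.20, and the intervals of the last steps included 1. On the right it was 5.15, 4.75, 3.32, 2.76, 1.78 and 2.57, and the interval of the step from 40 to 50 kb included 1 (0.770 to 3.80). The last step holds the CTS2/DXO1 promoter. Of the flank windows, 8 held no insertion in any of the 6 libraries. Among them were all windows from 1207001 to 1212000, in the right steps from 30 to 40 and from 40 to 50 kb. These ratios use whole-library shares, which the strong windows lower for Rgt1 everywhere else. In windows over 50 kb from any strong window, Rgt1 had 0.340 insertions per 10000 per kb, against 0.842 in the pooled libraries. An interval that includes 1 thus does not mark the end of the Rgt1 excess. Eds1 was above the pooled libraries, with an interval above 1, in the first step on the left (2.11, 1.35 to 3.22) and in the first steps on the right (1.54, 1.01 to 2.30, and 1.61, 1.02 to 2.48). In all other steps its interval included 1.

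**Figure D3:**
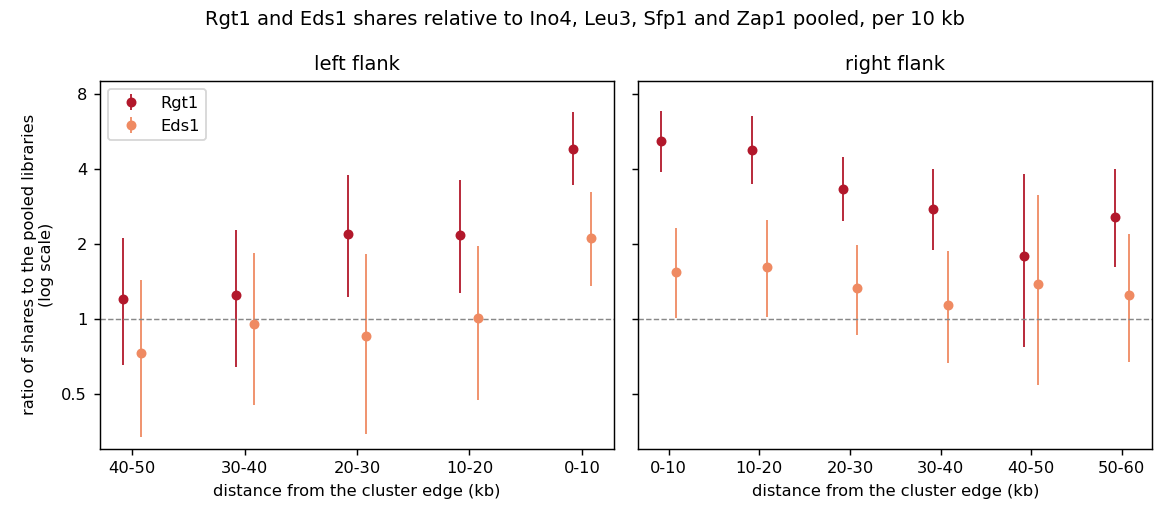
Ratio of the Rgt1 and Eds1 shares to the share of the 4 other libraries pooled (log scale), per 10 kb away from each edge of the cluster, with exact 95% intervals. Rgt1 lies at 4.81 and 5.15 beside the cluster, and Eds1 at 2.11 and 1.54.

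To see how far each library's excess reached, insertions were binned by distance from the nearest strong window of chromosome IV and set against the 11434 windows over 50 kb from any strong window. The bin from 1 to 2 kb lies inside the cluster, as do 2 of the 6 windows of the bin from 3 to 5 kb. The window that starts at 1168001, which holds most of the MRP1/SVF1 promoter, is in the bin from 1 to 2 kb. It held 123 of the 247 Rgt1, 17 of the 37 Eds1 and 14 of the 25 Sfp1 insertions of that bin. The windows of other member promoters are in the farther bins, so the bins are not separate from the promoter values above. Relative to the pooled libraries, Rgt1 was 54.4 times denser at 1 to 2 kb, 9.20 at 3 to 5 kb, 14.6 at 6 to 10 kb, 10.1 at 11 to 20 kb and 5.86 at 21 to 50 kb (4.89 to 6.99).

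Eds1 was higher near the strong windows, to a lower degree than Rgt1. Its ratio was 3.46 at 1 to 2 kb (2.21 to 5.35, exact adjusted p = 1.2e-07), 2.07 at 6 to 10 kb (1.41 to 2.97, exact adjusted p = 0.00028) and 1.82 at 11 to 20 kb (1.28 to 2.55, exact adjusted p = 0.00093). At 3 to 5 kb it was 1.61 (0.813 to 2.99, exact adjusted p = 0.185), and at 21 to 50 kb 1.15 (0.900 to 1.45, exact adjusted p = 0.237). The tests are Fisher's exact tests, two-sided, adjusted by Benjamini-Hochberg over the bins. The call at 11 to 20 kb was lost without the second pass of the Eds1 file (1.39, exact adjusted p = 0.161), with insertions within 5 bp counted once (1.43, exact adjusted p = 0.0665) and with a minimum of 2 reads (1.58, exact adjusted p = 0.0507), while the ratio was 3.41 without the first pass. At 1 to 2 kb it was 14.5 with strong windows of at least 500 Rgt1 insertions and 6.91 on the grid moved by 500 bp.

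The 4 other libraries also differed among themselves over these distances. Each was set against the other 3 in each bin, with Benjamini-Hochberg adjustment over 24 tests. Sfp1 was higher at 1 to 2 kb (2.61, 1.46 to 4.61, exact adjusted p = 0.0058) and Zap1 at 21 to 50 kb (1.73, 1.31 to 2.25, exact adjusted p = 0.0014). Leu3 was lower at 6 to 10 kb (0.593, 0.391 to 0.890, exact adjusted p = 0.0494) and at 21 to 50 kb (0.634, 0.514 to 0.780, exact adjusted p = 0.00029). Zap1 at 6 to 10 kb (1.88, 1.09 to 3.08, exact adjusted p = 0.0734) was not called.

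The bins were also pooled, in 2 ways that were both chosen after the bins had been seen. From 1 to 20 kb the Rgt1 ratio was 18.5 (16.1 to 21.3) and the Eds1 ratio 2.13 (1.74 to 2.60), and from 3 to 20 kb, which leaves out the bin inside the cluster, they were 11.7 (9.83 to 13.8) and 1.88 (1.49 to 2.36). Without the first pass of the Eds1 file the Eds1 ratios were 3.27 from 1 to 20 kb and 2.88 from 3 to 20 kb. Against single libraries, the Eds1 ratio from 1 to 20 kb was 2.58 over Leu3 (2.03 to 3.27), 1.98 over Ino4 (1.39 to 2.89), 1.81 over Zap1 (1.29 to 2.61) and 1.70 over Sfp1 (1.31 to 2.20). From 3 to 20 kb it was 2.23 over Leu3 (1.70 to 2.91), 1.67 over Ino4 (1.13 to 2.53), 1.65 over Sfp1 (1.22 to 2.23) and 1.44 over Zap1 (0.995 to 2.12). Each of the 4 libraries set against the other 3 had ratios from 1 to 20 kb of 1.37 for Sfp1 (1.08 to 1.74), 1.20 for Zap1 (0.854 to 1.65), 1.09 for Ino4 (0.761 to 1.52) and 0.691 for Leu3 (0.553 to 0.862). From 3 to 20 kb they were 1.20 for Sfp1 (0.912 to 1.56), 1.36 for Zap1 (0.949 to 1.89), 1.14 for Ino4 (0.777 to 1.63) and 0.718 for Leu3 (0.563 to 0.914).

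The strong windows elsewhere differed in how far the Rgt1 excess reached. At 11 to 20 kb the Rgt1 ratio was 10.1 on chromosome IV (7.80 to 13.1), against 1.96 around the strong windows of the other chromosomes together (1.65 to 2.32), and at 21 to 50 kb it was 5.86, against 1.28 (1.12 to 1.46). The nearest to chromosome IV was VIII, with 3.73 (2.64 to 5.20) at 11 to 20 kb and 2.48 (1.84 to 3.30) at 21 to 50 kb. Closer by, VIII was above IV. At 1 to 2 kb the ratio was 202 on VIII (136 to 313), against 54.4 on IV (40.4 to 74.5). At 3 to 5 kb it was 40.7 on VIII (29.1 to 58.1), against 9.20 on IV (5.70 to 14.7). At 6 to 10 kb it was 9.46 on VIII, against 14.6 on IV. From 3 to 20 kb chromosomes IV and VIII had ratios of 11.7 (9.83 to 13.8) and 11.1 (9.48 to 13.1), and XVI had 0.927 (0.591 to 1.39). Chromosome IV has 7 strong windows and the others 1 or 2 each, and the part of this number in the difference was not tested. For Eds1, the ratio from 3 to 20 kb was 1.88 on chromosome IV, against 1.13 on the others together (1.01 to 1.27) and 1.47 on VIII alone (1.16 to 1.86).

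**Figure D4:**
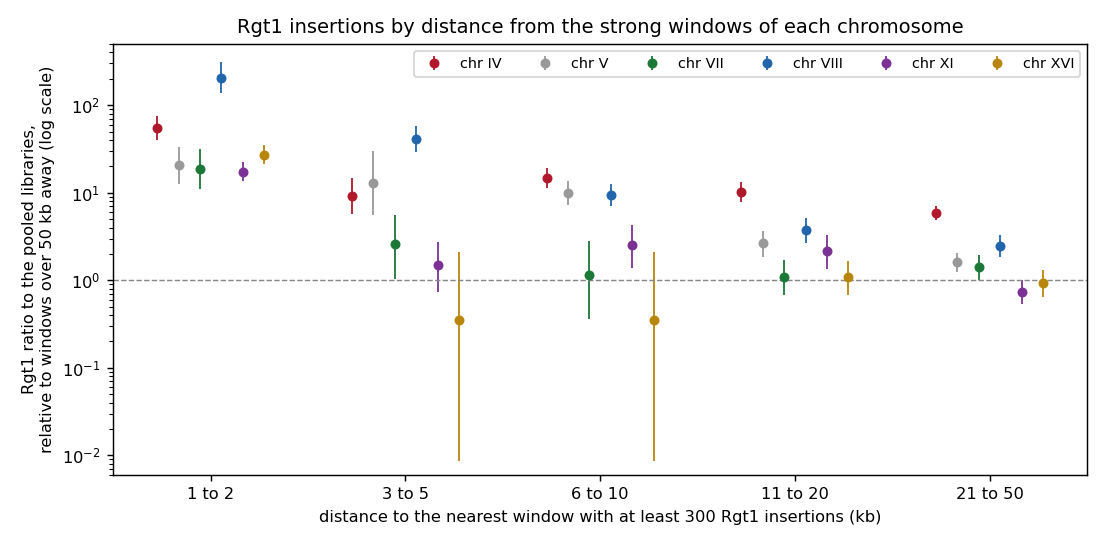
Rgt1 ratio to the 4 pooled libraries by distance to the nearest window with at least 300 Rgt1 insertions, relative to windows over 50 kb away (log scale), for each chromosome with such windows, with exact 95% intervals. At 21 to 50 kb chromosome IV lies at 5.86, and chromosome VIII, the next, at 2.48.

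Few of the flank insertions were at the same position in both libraries. Rgt1 and Eds1 shared 20 positions in the flanks, which is 4.22% of the 474 Rgt1 positions and 9.05% of the 221 Eds1 positions. Of the flank positions of the other libraries, 8.18% (Ino4) to 11.3% (Sfp1) were also Rgt1 positions. The Rgt1 flank insertions had a median of 3 reads, against 4 over the whole library, and for Eds1 both medians were 3. The 4 pooled libraries had more reads per insertion, and their medians were lower in the flanks too. They were 17 against 34 for Ino4, 7 against 18 for Leu3, 13 against 27 for Sfp1 and 13 against 24 for Zap1.

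The placed promoters outside this region whose log2 shares over the 6 libraries were most like those of the 7 promoters summed were MIG3 (Pearson r = 0.99), MTH1 (0.91), CDC19 (0.91), SND3/VID24 (0.81) and COS111 (0.79), out of 762 compared. MTH1 encodes a co-regulator of Rgt1 in glucose sensing, MIG3 a repressor related to Mig1, and CDC19 pyruvate kinase. These r values rest on 6 libraries each, in which Rgt1 is the highest, and are given as a description.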

How the data were processed

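Each deposited line gives a chromosome, a position and a read count, as made by the authors without normalization. Novoalign is named in the submitters' processing notes, with no version, and the genome build was not given in the sources used here. Each line was taken as 1 insertion, and 4 libraries (Ino4, Leu3, Sfp1 and Zap1) were pooled as background.

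Promoters were placed through the authors' promoter scores, whose form was inferred from their values. The scores of 1967 genes were solved for insertion counts in the 6 libraries. For 1930 of them more than 1 count of the background library fitted, and the best-fitting was used, so the counts and places are inferred. A promoter was the shortest stretch of at most 700 bp that held exactly these counts, also where several overlapping stretches did. Genes with under 10 insertions in the 6 libraries together, Rgt1 included, were left out (937). Of the rest 946 genes could be placed, in 794 promoters. A RefSeq gene table (assembly R64) supplied the names of 1750 genes and their order, but no coordinates.

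Shares are per 10000 insertions, with exact Clopper-Pearson 95% intervals and exact conditional intervals for ratios. Eds1 was tested by Fisher's exact test, two-sided, with Benjamini-Hochberg adjustment over all windows or promoters with at least 10 insertions, called at an adjusted p under 0.05. For log2 ratios 1 insertion was added to both counts. Python 3.11.15, numpy 2.4.6, scipy 1.17.1 and matplotlib 3.10.9 were used, and the scripts were tested on simulated data.

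The members and lists were chosen with earlier results of these data known. The text names all 10 members, HXT3, HXT6 and HXT7, the 3 windows of each flank with most Rgt1 insertions, the other flank promoters with the 3 highest and 3 lowest Rgt1 shares (ties included), and the 5 promoters most like the members. The window called for Eds1, SPC110 and YDR338C were named after their values were seen. The distance bins are those of the planned test, while the spans from 1 to 20 kb and from 3 to 20 kb were chosen after the bins were seen, the second of them after the value of the first. Alternatives changed what counts as an insertion, the library totals, the background libraries, the strong-window limit, the window grid, the minimum of insertions and the promoter stretch.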

Additional observations from a re-analysis of the deposited data

How the results depend on the processing

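Of 356 comparisons of a result with an alternative, 297 kept their direction and their side of the threshold or stayed within the interval. Leaving out each pass of a file, leaving out positions shared with Rgt1 and both pooled spans of distance were added after seeing the data. The Rgt1 flank ratio of 3.18 was 2.73 with equally weighted libraries, 4.12 with each position counted once, 4.54 with insertions within 5 bp counted once and 6.75 with library totals without strong windows. The ratio over the 7 promoters, 8.55, was 6.31 within 5 bp and 18.1 with those totals. The Eds1 flank ratio of 1.35 was 1.16 with equal weights, 1.10 without Leu3, 2.03 without the first pass and 1.15 without the second, and that over the 7 promoters, 1.92, was 3.10 without the first pass. The Eds1 flank windows called, 1, were 0 with each position once, with at least 2 reads, within 5 bp, with no minimum, on the moved grid, without the second pass or without Leu3, 2 with totals without strong windows and 3 without the first pass. The Eds1 promoters called, 0, were 1 without the first pass, without positions shared with Rgt1 or without Sfp1.

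By distance, the Rgt1 ratio within 5 bp was 22.0 at 1 to 2 kb, 8.29 at 6 to 10 kb, 6.59 at 11 to 20 kb, 3.81 at 21 to 50 kb, 9.46 at 1 to 20 kb and 7.30 at 3 to 20 kb. On the moved grid it was 152 at 1 to 2 kb, 26.9 at 3 to 5 kb, 32.0 at 1 to 20 kb and 14.8 at 3 to 20 kb. With strong windows of at least 500 insertions it was 103 at 1 to 2 kb and 30.7 at 1 to 20 kb, where a window of 457 insertions then counts as a neighbour by construction, and 15.4 at 1 to 20 kb with each position once. The Eds1 ratio at 3 to 5 kb was called on the moved grid (2.24). At 11 to 20 kb it was not called with at least 2 reads (1.58), within 5 bp (1.43) or without the second pass (1.39). At 21 to 50 kb it was 0.953 within 5 bp and 0.955 without the second pass, below 1, and was called at 1.88 without the first. Over 1 to 20 kb and over 3 to 20 kb the Eds1 ratio had an unadjusted p under 0.05 by Fisher's exact test under all 10 alternatives run. It was 1.68 to 4.59 (the highest with the limit of 500) and 1.51 to 2.88 (the highest without the first pass). Both spans were chosen after the bins were seen. Leaving a library out of the pooled background was not run for any distance. At SEM1 the Eds1 ratio was below 1 in the 1-kb window (0.778), with each position once (0.973), within 5 bp (0.814), without the first pass (0.437) and without Leu3 (0.668), and at FCF1 without the second pass (0.759). Except as stated for the strong-window limit, the cause was not tested. No paired analysis was possible because each TF has 1 library. Promoter counts of 1 to 19 in most libraries limit what a single promoter can show.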
